A study of Mus musculus with 28 samples.

Results

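The cytosolic ribosomal protein genes encode the proteins of the large (Rpl) and small (Rps) subunits of the ribosome outside the mitochondria. They were chosen by gene name: an Rpl or Rps symbol with its number, together with Rplp0, Rplp1, Rplp2 and Rpsa, without the Rps6 kinases and without pseudogenes marked -ps. Of 29413 genes in the BMP table, 86 matched the name rule and 82 had a mean of at least 10 normalised counts over its 20 samples, 48 of the large and 34 of the small subunit. The annotation calls 80 of the 82 protein coding, and the remaining members, Rps3a2 and Rps4l, pseudogenes. The nearest genes under the threshold were Rps3a3 with a mean of 9.86 and Rpl6l with 5.72, and the nearest above it were Rps3a2 with 15.5 and Rps27 with 64.7 normalised counts.

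Ribosomes are built in the nucleolus and cytoplasm from ribosomal RNA and ribosomal proteins, and cells that grow and divide spend much of their transcription and translation on them. In the intestine, the dividing cells sit in the crypt, while cells that move up the villus stop dividing and differentiate under BMP signals. Ribosomal protein mRNAs are known for a 5′ terminal oligopyrimidine (TOP) tract, a C followed by further C or T bases at the very start of the transcript, through which growth signals control their translation.

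The study asked how single ligands of the Tgfb superfamily change gut epithelial cells. Organoids, small epithelial cultures grown from crypts, came from the small intestine of wild-type C57BL/6 mice, and every group started without added BMP or Tgfb. In the BMP table, 4 samples were untreated controls, and the others received recombinant Bmp2 (n = 4), Bmp3, Bmp4, Bmp5 or Bmp7 (n = 3 each) at 500 ng/ml for 24 h. In the second table, 3 samples received recombinant Tgfb at 500 ng/ml for 24 h and 3 were untreated controls of their own. Mesenchymal cells from the duodenum of a PdgfraH2BeGFP mouse filled the last table, with 1 sample of fresh cells and 1 sample of such cells immortalised with the HPV16 E6 gene by retrovirus, selected with puromycin and sorted for high eGFP; neither had a replicate. The labels do not say that samples of a group came from separate animals or cultures, so p-values measure the spread between these samples, which may be technical.

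The BMP samples held 21358040 to 24784992 recovered reads, and their values are counts divided by size factors. The Tgfb and mesenchymal values are TPM, transcript abundances per length that sum to the same total in each sample, and their depth is unknown. All 5 epithelial markers passed the test as higher under each ligand but BMP3, and their sum in untreated organoids was 89310 to 99740 normalised counts, against 122.3 to 205.7 for the 5 mesenchymal markers in that table. In the mesenchymal cells Cdh1, Vil1 and Cldn7 were listed at 0. Epcam and Krt8 stood at 0.161 and 9.1 TPM in fresh cells and were listed at 0 in immortalised cells. Col1a1 stood at 5540 TPM in fresh and 1480 TPM in immortalised cells, and Col1a2, Col3a1 and Dcn were lower there too. Pdgfra (37.5 and 113 TPM) and Vim (1830 and 1980 TPM) were higher in immortalised cells.

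Start-site sequences are shown for some of the named members, to let the TOP tract be seen beside their changes. The choice is not a sample from which to read how often such members hold one. Of the 82 members, 60 matched RefSeq's promoter table (GRCm38.p6) by symbol. Each window runs from 10 bases before the annotated start to 20 bases from it onwards, 5′ to 3′ on the transcribed strand, and capitals mark the longest run of C or T of at least 5 bases that begins with C within 5 bases of that start. The first 5 are Rpl12, Rps2, Rpl14, Rpl22l1 and Rps6, which hold such a run.

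Rpl12 (chr2:32961702-32961731, plus strand): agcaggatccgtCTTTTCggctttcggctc
Rps2 (chr17:24720053-24720082, plus strand): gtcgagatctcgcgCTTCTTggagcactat
Rpl14 (chr9:120571507-120571536, plus strand): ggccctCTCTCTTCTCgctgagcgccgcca
Rpl22l1 (chr3:28805498-28805527, plus strand): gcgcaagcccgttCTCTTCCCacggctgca
Rps6 (chr4:86857348-86857377, minus strand): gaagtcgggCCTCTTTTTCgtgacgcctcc
Rpl5 (chr5:107900518-107900547, plus strand): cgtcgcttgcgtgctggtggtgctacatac
Rplp0 (chr5:115559457-115559486, plus strand): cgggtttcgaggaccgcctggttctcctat
Rps27 (chr3:90213629-90213658, minus strand): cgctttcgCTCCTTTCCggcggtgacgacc

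Rpl5 and Rplp0 hold no such run in this window, nor do Rpl7l1, Rps28 and Rpl37a, which are not shown. Rpl19, also not shown, holds a run of 5 bases. Of the 60 matched members, 28 (46.7%) hold one, against 4986 of 27018 promoters in the whole table (18.5%). Runs of at least 10 bases stand in 11 of the 60 (18.3%) and in 2.09% of all promoters. A run is a match of letters to one annotated start per gene and shows neither the start used in these cells nor control of the mRNA. Rpl3, Rpl7 and Rpl36 were not among the matched genes.

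Together, the 82 ribosomal protein genes made up 3.99%, 3.67%, 3.23% and 3.6% of the summed normalised counts in control replicates II, III, IV and VI. In BMP2 samples the share was 2.1%, 1.48%, 1.4% and 1.71%, so each BMP2 sample lay below each control. With BMP4 the 3 samples held 2.66%, 2.55% and 2.14%, also below each control. Those with BMP3 held 4.02%, 3.77% and 3.43%, overlapping the control range. With BMP5 the shares were 3.76%, 3.08% and 2.62%, of which the first lay within the control range. With BMP7 they were 2.87%, 3.14% and 2.61%, each below each control. The mean share was 12.6% ± 1.13 (SD, n = 3) of the TPM in the controls of the Tgfb table and 9.29% ± 1.03 (SD, n = 3) with Tgfb. A share depends on every other transcript in the total, and the summed normalised counts were larger in BMP2 and BMP4 samples, with means of 27350000 and 26230000 against 19890000 in controls.

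**Figure D1:**
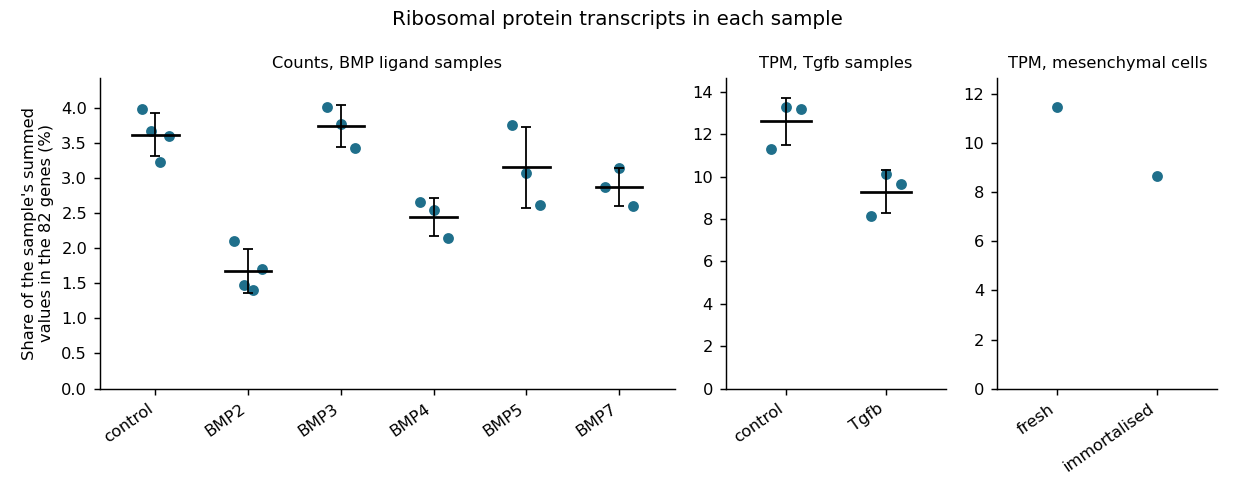
Share of each sample's summed values (%) held by the 82 ribosomal protein genes, by group, in the 3 tables; points are samples, bars the mean and SD. All BMP2 samples (1.4% to 2.1%) and BMP4 samples (2.14% to 2.66%) lie below all controls (3.23% to 3.99%), and shares of counts and of TPM are not on one scale.

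With BMP2, 73 of the 82 members fell (limma on log2 of value + 1, Benjamini-Hochberg adjusted p under 0.05 over 14746 genes) and 0 rose. Over all genes tested, 38.4% were called lower with BMP2. The median log2 difference over members was -0.69, a fold of 0.618, against -0.03 over all tested genes, and the quartiles were -0.90 and -0.53. The large subunit (48 members) had a median of -0.69 and the protein-coding small subunit members (32) one of -0.69. The 9 members without a call were Rpl7, Rpl19, Rplp0, Rpl37a, Rpl41, Rps14, Rps27 and the annotated pseudogenes Rps3a2 and Rps4l. Markers of crypt and cycling cells moved with this: 8 of 8 fell, with a median log2 difference of -5.69, and their sum was 2713 to 4563 normalised counts with BMP2 against 125500 to 152800 in controls. Lgr5, the stem cell receptor, had a mean of 9.5 ± 5.96 (SD, n = 4) with BMP2 against 4340 ± 971 (SD, n = 4). None of the 8 was at 0 in every sample. Their part in the ribosomal protein result was not tested, and in such bulk samples fewer cells of a type and less RNA per cell cannot be told apart.

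Rpl12 (ENSMUSG00000038900), a large-subunit protein at the base of the stalk that recruits translation factors, fell most. Its normalised counts were 714, 626, 605 and 627 in the controls and 267, 138, 158 and 151 in the BMP2 samples. All BMP2 samples lie below all controls, and BMP2 replicate II is the highest of its group. The log2 difference was -1.89 (SE 0.15, limma adjusted p = 1.41e-09). Rpl5 (ENSMUSG00000058558), which with Rpl11 carries 5S ribosomal RNA into the large subunit and binds Mdm2, had 1810, 1450, 1250 and 1520 normalised counts in controls and 647, 472, 439 and 637 with BMP2. The groups did not overlap, and the log2 difference was -1.47 (SE 0.149, limma adjusted p = 4.35e-08). Rps2, at the mRNA entry side of the small subunit, had 35000, 31400, 26200 and 32200 normalised counts in controls and 14100, 11800, 10700 and 15000 with BMP2, a log2 difference of -1.28 (SE 0.13, limma adjusted p = 4.34e-08). Each of the 3 fell more than the members' median. Rpl12 and Rpl5 ranked far lower among the members by these counts than by TPM in the Tgfb table. Other members, such as Rps12 (61 against 5 in controls), had gaps as wide, and counts are not per length. Ranks alone thus do not show reads lost to copies, and the counts of Rpl12 and Rpl5 here remain uncertain.

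Rpl7, at the other end of the range, had 27300, 23500, 21500 and 25000 normalised counts in controls and 28500, 24600, 19800 and 25300 with BMP2. These groups overlap, with a log2 difference as deposited of 0.01 (SE 0.115, limma adjusted p = 0.962). Its relative Rpl7l1, which acts in assembly of the large subunit, fell by 0.61 on the log2 scale (limma adjusted p = 2.52e-07), from 2470, 2360, 2490 and 2600 to 1720, 1680, 1480 and 1620 normalised counts. Rplp0, the scaffold of the stalk and a common reference gene in quantitative PCR, had 36000, 31000, 27700 and 33700 normalised counts in controls and 33300, 25500, 23100 and 29900 with BMP2, and was not called (log2 difference -0.21, limma adjusted p = 0.126). Its stalk partners Rplp1 and Rplp2 fell by 0.54 and 0.51 on the log2 scale (limma adjusted p = 0.00091 and 0.00215).

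Other members with known roles fell too. Rps6, the small-subunit protein phosphorylated by S6 kinase, had 7620, 6250, 5710 and 6690 normalised counts in controls and 4520, 3150, 2590 and 3750 with BMP2, without overlap, and fell by 0.93 on the log2 scale (limma adjusted p = 2.11e-05). Rps19, a gene mutated in Diamond-Blackfan anaemia, fell by 0.85 and Rpl11 by 0.83 on the log2 scale. Rpsa, also known as a laminin receptor, fell by 1.00, Rpl10a by 0.65, Rpl38 by 0.50 and Rps3 by 0.46 on the same scale, each past the threshold. The paralogs Rpl22 and Rpl22l1 fell by 0.84 and 0.81, and Rpl36a by 0.78 on the log2 scale.

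**Figure D2:**
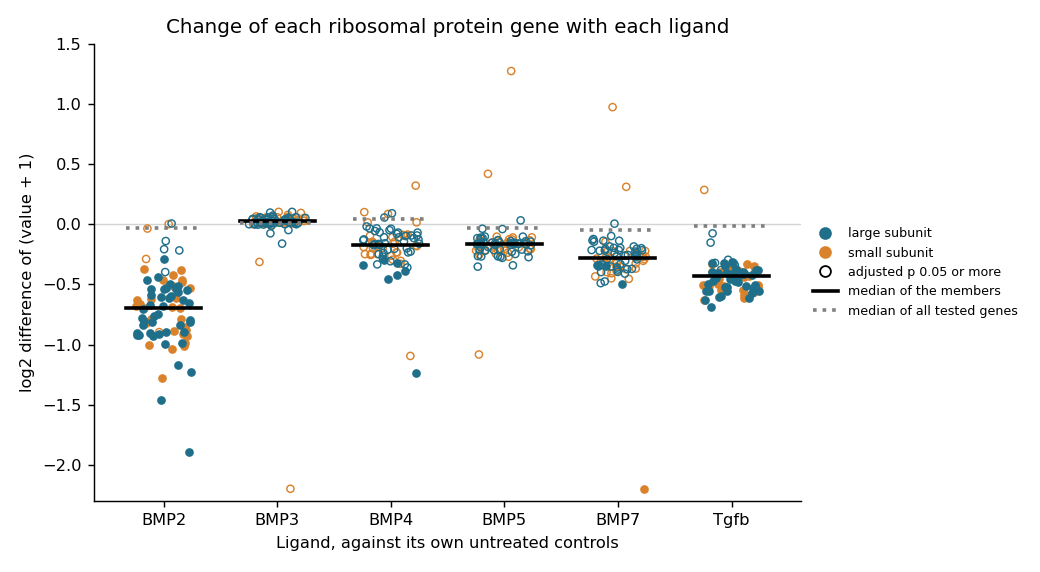
Log2 difference of (value + 1) from untreated controls for each ribosomal protein gene (y axis) with each ligand (x axis); blue points are large-subunit and orange points small-subunit genes, filled points passed limma's adjusted p of 0.05, black bars are the members' medians and dotted bars the medians of all tested genes. Points below the axis range (Rps3a2 with BMP3 and BMP7) are drawn at its lower edge, and the members' median is lowest for BMP2 (-0.69), then Tgfb (-0.43), BMP7 (-0.28), BMP4 (-0.17), BMP5 (-0.16) and BMP3 (0.03).

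The members did not fall by the same amount. Relative to the members' own median in each sample, which does not depend on the scaling between samples beyond the pseudocount of 1, 23 stood higher and 11 lower with BMP2 by the same test, where 56.7% and 18.5% of all genes did. Rpl7 was higher by 0.78 (SE 0.0972, limma adjusted p = 5.67e-07), Rpl19 by 0.63 and Rplp0 by 0.56 on the log2 scale. Rpl12 was lower, with a log2 difference of -1.12 (SE 0.145, limma adjusted p = 8.52e-07), as were Rpl5 (-0.70) and Rps2 (-0.51). Rplp1, Rplp2, Rps3, Rpl38 and Rps27l were also among the 23, and Rpsa and Rpl14 among the 11. The number lower was 6 without control replicate II or III, 7 without control replicate IV, control replicate VI or BMP2 replicate III, and 5 without a filter on low values.

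With BMP4, the same crypt markers fell in 8 of 8 cases, with a median log2 difference of -3.07 and a sum of 10840 to 15840 normalised counts. Markers of mature enterocytes rose in 6 of 6 cases, where 4964 of 14746 tested genes were called higher. Their sum was 307600 to 395200 against 44920 to 86250 in controls, and their part in the result was not tested. Of the 82 members 7 fell and 0 rose, where 31.4% of all genes were called lower, and the members' median was -0.17 against 0.04 over all genes. The 7 were Rpl12, Rpl7l1, Rpl14, Rpl6, Rpl18, Rpl24 and Rpl27a, all of the large subunit. The subunits' medians were close, -0.16 over the 48 large-subunit and -0.18 over the 32 protein-coding small-subunit members. Rpl24 had 1950, 2350 and 2790 normalised counts with BMP4 and 4050, 2350, 2690 and 4110 in controls, which overlap. Rpl12 had 257, 291 and 266 normalised counts with BMP4, far below the control range, and a log2 difference of -1.24 (SE 0.162, limma adjusted p = 2.21e-06). Relative to the members' median Rpl12 alone stood apart (-1.06 on the log2 scale, limma adjusted p = 1.2e-05), as 1 lower and 0 higher call where 22.3% and 35.4% of all genes had one. Rpl7l1 fell by 0.43 (limma adjusted p = 7.82e-05) and Rpl14, of the large subunit, by 0.39 on the log2 scale (limma adjusted p = 0.01). The count of 7 became 3 without control replicate II, without control replicate VI or without BMP4 replicate III, 4 without BMP4 replicate VI and 12 without control replicate IV. Deviations of same-numbered control and BMP4 samples correlated weakly over all tested genes (r 0.19 to 0.225). The members' median deviation from the group's mean differed in sign in replicates III (-0.02 in control, 0.04 with BMP4) and VI (0.03 and -0.16). It shared its sign in replicate II (0.19 and 0.12). With replicate numbers as blocks 45 members were called lower, where 35% of all genes were. By edgeR on recovered reads the number was 26.

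BMP2 and BMP4 were compared directly, at the same dose and time. In BMP2 samples 67 of the 82 members were lower than with BMP4 and 0 were higher, with 33.4% of all genes called lower. The median difference over members was -0.52 on the log2 scale. Cell-type markers differed between these groups as well. All 6 mature enterocyte markers were lower with BMP2 than with BMP4 (median -4.18), and against controls 1 rose and 3 fell with BMP2. Of the 8 crypt and cycling markers 7 were lower and 1 higher with BMP2 than with BMP4 (median -2.64). The part of these markers in the difference was not tested. Rpl5 differed by -1.11 on the log2 scale (limma adjusted p = 6.88e-06), with 1220, 1070 and 1210 normalised counts with BMP4, so that the BMP4 samples stood below but near the controls and the BMP2 samples far below both. Rps2 had 27200, 24800 and 25700 normalised counts with BMP4 and differed by -1.02 on the log2 scale (limma adjusted p = 3.63e-06). Rpl3, at the peptidyl transferase centre of the large subunit, had 14000, 10100 and 12000 normalised counts with BMP4 against 8540, 5590, 4350 and 8210 with BMP2, a log2 difference of -0.89 (limma adjusted p = 0.00114). Rpl12 differed less between the ligands, by -0.65 on the log2 scale (limma adjusted p = 0.00169).

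With BMP3, 0 of 82 members were called by limma, where 0% of all genes were called lower, and the median log2 difference was 0.03. At an unadjusted p under 0.05 there was 1 member, as against 0.746% of all genes, and edgeR and DESeq2 on recovered reads also called 0. Relative to the members' median 0 stood apart. Rpl12, for example, had 697, 678 and 607 normalised counts with BMP3.

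BMP5 and BMP7, which are close relatives, gave small shifts. With BMP5 0 of 82 members were called by limma, where 9.87% of all genes were called lower, with a median of -0.16 and 4 members at an unadjusted p under 0.05; edgeR called 1 higher and DESeq2 0. With BMP7 5 fell, Rpl12, Rpl14, Rpl18, Rps28 and Rps3a2, where 13.2% of all genes were called lower, with a median of -0.28. Rps28, which helps shape the mRNA exit channel of the small subunit, had 1870, 1610, 1600 and 1730 normalised counts in controls and 1290, 1400 and 1330 with BMP7, a log2 difference of -0.34 (limma adjusted p = 0.0347). Rpl12 had 537, 488 and 495 normalised counts with BMP5 and 425, 516 and 431 with BMP7, all below the controls, and its call with BMP7 (-0.49, limma adjusted p = 0.0262) was lost without control replicate II (0.0672), BMP7 replicate II (0.0991) or BMP7 replicate VI (0.0911). The calls of Rpl14 and Rps28 with BMP7 were each lost under 5 or more alternatives, and the number called was 0 without BMP7 replicate II or VI, 1 without control replicate II or VI, 3 without control replicate III, 8 without BMP7 replicate III and 9 without control replicate IV. Without BMP5 replicate II, 5 members were called with BMP5.

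Over all tested genes, deviations of same-numbered control samples correlated weakly with those of BMP5 (r 0.158 to 0.262) and BMP7 (r 0.236 to 0.294). The members did not always follow. Their median deviation from the group's mean was 0.03 in control replicate VI, but -0.21 in BMP5 and -0.12 in BMP7 replicate VI. In replicate II the control (0.19) and BMP5 (0.24) shared a direction. Of the alternatives, using replicate numbers as blocks moved the counts with BMP5 and with BMP7 furthest. With replicate numbers as blocks, 30 members were called lower and 1 higher with BMP5, where 17.6% of all genes were called lower, and 71 lower with BMP7, where 21.3% were. Within groups the members shifted jointly from sample to sample: in control replicate II the median deviation from the group's mean was 0.19 on the log2 scale with 78 of 80 protein-coding members on the same side, and in control replicate IV it was -0.20 with 78 of 80. In the direct comparison of BMP5 with BMP7, 0 of 82 members were called by limma, edgeR and DESeq2, where 0.00678% of all genes were called lower, with 0 members at an unadjusted p under 0.05 and a median difference of 0.11. Relative to the members' median 1 member stood higher with BMP7, Rpl7 (0.29, limma adjusted p = 0.0459), and 0 lower, where 24.1% and 3.16% of all genes did. That call was lost under 8 of its alternatives, with adjusted p from 0.0504 to 0.198. Crypt and cycling markers fell in 1 of 8 cases with BMP5 and 3 of 8 with BMP7, where 9.87% and 13.2% of all genes were called lower. The count with BMP5 thus lay near the share of all genes. The summed counts of these markers were 50360 to 105200 with BMP5 and 43260 to 54070 with BMP7, against 125500 to 152800 in controls. The BMP comparisons share their control samples and are not independent of one another.

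With Tgfb, tested in samples and controls of its own, 70 of 81 tested members fell and 0 rose, where 32.9% of 7880 tested genes were called lower. The median log2 difference was -0.43, a fold of 0.744, against -0.01 over all genes, and the spread over protein-coding members (SD 0.106 on the log2 scale) was narrower than with BMP2 (0.302). Rpl36, of the large subunit, had 1345, 1597 and 1579 TPM in controls and 797, 1043 and 978 TPM with Tgfb, without overlap, and a log2 difference of -0.69 (SE 0.132, limma adjusted p = 0.00321). Rpl12 had 1425, 1719 and 1700 TPM in controls and 897, 1141 and 1088 with Tgfb (-0.63, limma adjusted p = 0.00435), and Rps6 1699, 2014 and 1979 TPM against 1098, 1319 and 1268 (-0.63, limma adjusted p = 0.00268). Rpl7 was not called, with 2446, 2800 and 2728 TPM in controls and 2309, 2635 and 2626 with Tgfb, which overlap. The first replicate was the lowest of its group for each of these 4 genes. The number called was 35 without control replicate II and 36 without control replicate III. The 8 crypt and cycling markers fell in 8 of 8 cases, and their summed TPM was 446 to 461.1 with Tgfb against 3077 to 3538.

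Relative to the members' median, 3 stood higher and 5 lower with Tgfb, where 53.2% and 12.5% of all genes did. Rpl7 (0.36, limma adjusted p = 0.00156), Rpl37a (0.28) and Rps4l (0.72) stood higher, and Rpl36 (-0.25), Rpl12 (-0.20), Rps6 (-0.19), Rpl3 (-0.18) and Rps2 (-0.18) lower on the log2 scale. The number was 4 without control replicate I, II or III or without Tgfb replicate III, and the calls of Rpl12 and Rps6 were lost in each of these. Members that stood high or low with BMP2 tended to stand so with Tgfb, although the comparisons share no sample. Across the 80 protein-coding members, which are not independent replicates and share their transcripts' length and base composition, Pearson's r between the relative changes was 0.72 and Spearman's rho 0.744. Set beside Tgfb in the same way, BMP4 had a Pearson's r of 0.325 and a Spearman's rho of 0.343, BMP5 0.288 and 0.652, and BMP7 0.359 and 0.5. The values for BMP5 and BMP7 include Rps27, whose relative change was 1.46 and 1.26 on the log2 scale. These rest on 488 normalised counts in BMP5 replicate VI and 247 in BMP7 replicate II. The SD over protein-coding members was 0.174 and 0.17, and Pearson's r without Rps27 was not computed.

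**Figure D3:**
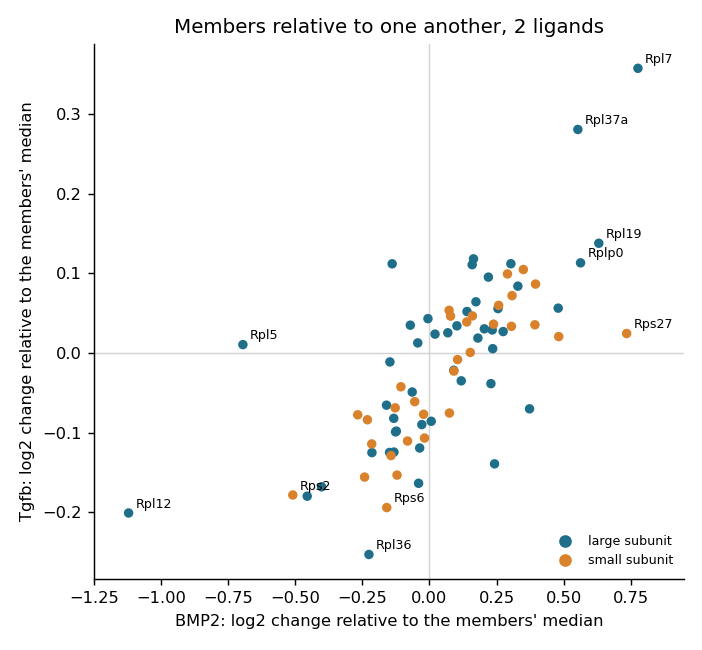
Log2 change of each protein-coding ribosomal protein gene relative to the members' median, with BMP2 (x axis) and with Tgfb (y axis), in separate sets of samples. Rpl12 (-1.12 and -0.20) lies at the lower left and Rpl7 (0.78 and 0.36) at the upper right, and Rpl5 (-0.70 and 0.01) lies low on the x axis and near 0 on the y axis.

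The scaling of samples moved the number of members called most for BMP4 and BMP7, and the size of the members' median most for BMP2 and BMP4. When every sample was set to the same total, 79 members were called lower with BMP2, 74 with BMP4 and 21 with BMP7, where 53%, 46.7% and 18.5% of all genes were. The median of all genes then shifted by -0.46 with BMP2 and by -0.40 with BMP4. After quantile normalisation, which makes the distributions of all samples equal, 77 members were called lower with BMP4 and 63 with BMP7, where 33.4% and 19.9% of all genes were, with medians of -0.68 and -0.41. The members' median minus that of all genes was -0.66 (BMP2), -0.21 (BMP4) and -0.23 (BMP7) as deposited, which a single factor per sample leaves nearly as it is, and -1.19, -0.71 and -0.31 after quantile normalisation. With Tgfb the median ran from -0.43 to -0.30 over TPM as deposited, TMM, median-of-ratios and quantile scaling, with 69 to 75 members called lower. No scaling called any member higher with any ligand.

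**Figure D4:**
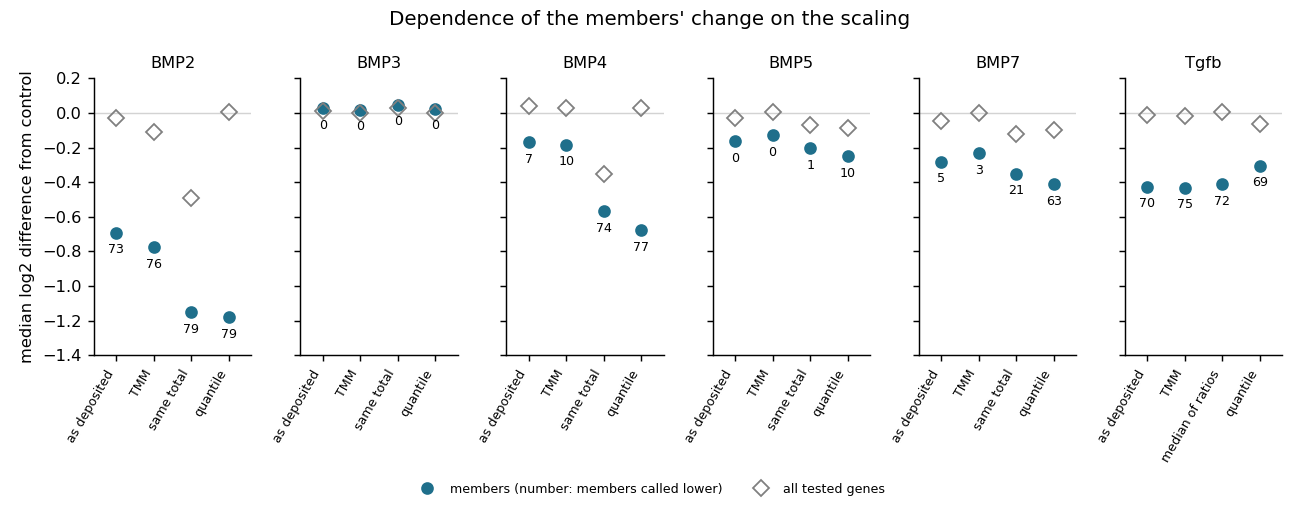
Median log2 difference from control of the members (filled points, with the number called lower) and of all tested genes (open diamonds) under each scaling, 1 panel per ligand. With BMP4 the number called lower goes from 7 as deposited to 74 at the same total and 77 after quantile normalisation, and with BMP2 from 73 to 79.

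Other genes of the translation machinery were read from lists of 56 assembly factors, 36 translation factors and 78 mitochondrial ribosomal proteins. Assembly factors, which build ribosomes in the nucleolus, fell in 48 of 56 cases and rose in 5 with BMP2 (median log2 difference -1.30). Over all tested genes 38.4% were called lower with BMP2. With BMP4 the assembly factors fell in 50 and rose in 2 of 56 cases (median -1.23), where 31.4% of all genes were called lower. The ribosomal proteins' median with BMP4 was -0.17. The direct comparison of BMP2 with BMP4 called 14 assembly factors higher and 9 lower (16.1%), with a median of 0.02. It called 4924 of 14746 tested genes higher and 4923 (33.4%) lower, and 0 and 67 of the 82 ribosomal protein genes. With Tgfb 39 of 54 assembly factors fell and 2 rose, with BMP5 3 fell and 1 rose, and with BMP7 1 fell and 2 rose. Of all genes, 32.9%, 9.87% and 13.2% were called lower with these ligands. With replicate numbers as blocks 11 assembly factors fell with BMP5 (19.6%, where 17.6% of all genes did) and 9 with BMP7 (16.1%, where 21.3% did). After quantile normalisation 18 fell with BMP5 (32.1%) and 15 with BMP7 (26.8%), where 2413 and 2938 of 14746 tested genes were called lower. Fbl, the methyltransferase of nucleolar RNA, had 2932 ± 136 (SD, n = 4) normalised counts in controls, 661 ± 66 (SD, n = 4) with BMP2 and 1004 ± 280 (SD, n = 3) with BMP4, log2 differences of -2.15 and -1.58 (limma adjusted p = 5.76e-11 and 3.13e-08). Npm1 and Ncl, the main nucleolar proteins, fell as well, with log2 differences of -1.89 and -1.85 with BMP2 and of -1.17 and -1.64 with BMP4. Against the list's direction, Sbds and Eif6, which act at the last step of large-subunit maturation, rose: Sbds by 1.64 with BMP2, 1.21 with BMP4 and 0.56 with Tgfb, and Eif6 by 1.48, 0.82 and 0.86 on the log2 scale.

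**Figure D5:**
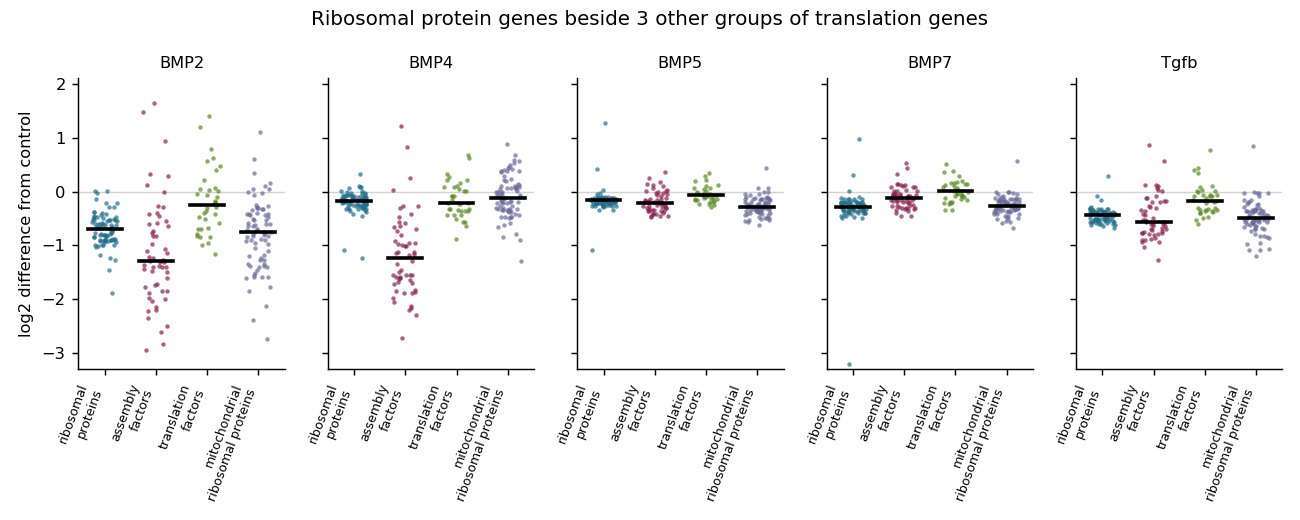
Log2 difference from control of single genes (points) and list medians (black bars) for the ribosomal proteins, assembly factors, translation factors and mitochondrial ribosomal proteins, 1 panel per ligand, with points beyond the axis drawn at its edge. With BMP4 the assembly factors' median is -1.23 and the ribosomal proteins' -0.17, while with BMP2 they are -1.30 and -0.69.

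Mitochondrial ribosomal proteins, which make up the separate ribosome of mitochondria, fell in 68 of 78 cases with BMP2 (3 rose), 28 with BMP4 (14 rose), 35 with BMP5 (1 rose), 34 with BMP7 (1 rose) and 59 with Tgfb (1 rose). Their medians on the log2 scale were -0.75, -0.11, -0.29, -0.28 and -0.48. The shares that fell were 87.2%, 35.9%, 44.9%, 43.6% and 75.6%, where 38.4%, 31.4%, 9.87%, 13.2% and 32.9% of all genes did. With BMP4 the share was thus near that of all genes. With replicate numbers as blocks 56 fell with BMP5 and 56 with BMP7 (71.8% for each), where 17.6% and 21.3% of all genes did. With TMM factors 28 (35.9%) and 22 (28.2%) fell, where 1208 and 1584 of all tested genes were called lower. Mrps27 fell by 2.73 with BMP2 and by 1.20 with Tgfb on the log2 scale, and Mrps6 rose with BMP2, from 413.5 ± 44.2 (SD, n = 4) to 897.5 ± 180 (SD, n = 4) normalised counts, and with Tgfb (0.85 on the log2 scale). Translation factors moved both ways: 17 of 36 fell and 7 rose with BMP2, 15 and 4 with BMP4, and 14 and 4 with Tgfb. The shares that fell, 47.2%, 41.7% and 38.9%, lay near those of all genes, 38.4%, 31.4% and 32.9%. With replicate numbers as blocks 8 fell with BMP5 and 8 with BMP7, against 1 and 1 without. That is 22.2% for each, near the 17.6% and 21.3% of all genes called lower with the same blocks. At the same total in every sample, 28 translation factors fell (77.8%) and 3 rose with BMP2, and 30 fell (83.3%) and 0 rose with BMP4. Of the mitochondrial list 59 fell (75.6%) and 2 rose with BMP4. At that scaling 53% of all genes were called lower with BMP2 and 46.7% with BMP4. Eif1 and Eif4g2 rose with BMP2 by 1.41 and 1.19 on the log2 scale, and Pabpc4, a poly(A)-binding protein, fell by 1.17. Eef1a1, which brings aminoacyl-tRNA to the ribosome and is itself a TOP mRNA, was not called with BMP2 (-0.28, limma adjusted p = 0.0851). Of 18 growth control genes 7 rose and 6 fell with BMP2 and 9 rose and 7 fell with BMP4, with medians of 0.06 and 0.22 as deposited that became -0.40 and -0.18 at the same total. The shares that fell, 33.3% and 38.9%, lay near the 38.4% and 31.4% of all genes. Of 14746 tested genes 5420 were called higher with BMP2 and 4964 with BMP4. Among the growth control genes Mxd1, a repressor that opposes Myc, rose by 4.60 with BMP2, 3.11 with BMP4 and 3.33 with Tgfb on the log2 scale. Myc fell with BMP4 (-1.59, limma adjusted p = 7.2e-05) and was not called with BMP2 (-0.48, limma adjusted p = 0.107).

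The ribosomal protein Fau, made as a fusion with a ubiquitin-like protein, and the ribosome-bound scaffold Rack1 have other names and are no members. Fau had 3820, 3490, 3010 and 3600 normalised counts in controls and 6460, 6430 and 4840 with BMP4, all higher, a log2 difference of 0.76 (limma adjusted p = 0.000447). At the same total it was 0.36 with an adjusted p of 0.063, and after quantile normalisation 0.30 with 0.0935. With BMP2 Fau was not called (0.08, limma adjusted p = 0.657), and at the same total it was lower (-0.38, limma adjusted p = 0.0289). Rack1 fell with BMP2 by 0.62 on the log2 scale (limma adjusted p = 0.000384). With Tgfb, Fau and Rack1 fell by 0.33 and 0.35 on the log2 scale, each past the threshold.

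Members with and without a run of pyrimidines at the annotated start had medians close to each other. With BMP2 the median log2 difference was -0.72 over the 28 with a run and -0.67 over the 32 without, and with BMP4 -0.15 and -0.19. With BMP7 the medians were -0.33 and -0.25. Rpl12, which fell most, holds a run of 6 bases and Rpl5, which came next with BMP2, holds none, as the sequences above show.

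Per length, in TPM, untreated organoids held from 102.1 (Rpl7l1) to 3005 TPM of the protein-coding members, a range of 29.4-fold, with a median of 1547. The 3 with the highest mean over the 6 samples of that table were Rpl7, Rps15a and Rpl41. In the BMP table, whose counts are not per length, the protein-coding members ran from 31.2 (Rps27) to 32580 normalised counts in controls, a range of 1040-fold, and Rplp0, Rpl4 and Rps2 had the highest means. Rps27 ranked last of the 82 by these counts but 19th by TPM in the controls of the Tgfb table, where it had 1643, 1956 and 1940 TPM. Its retrogene copy Rps27rt showed the reverse, with a mean of 3765 normalised counts in BMP-table controls but 24.8 TPM in Tgfb-table controls. Copies named -ps, counted with Rps3a2 and Rps4l, numbered 243 in the BMP table and 324 in the Tgfb table. In the BMP table they took 15.3% to 17.1% of the counts of members and copies. In the Tgfb table they took 1.16% to 1.25% of the TPM of members and copies. Members with near-identical copies are therefore uncertain in the BMP table. Rpl12 ranked 79 of 82 by counts and 36 by TPM in controls, and Rpl5 76 and 34. Gaps as wide were seen for Rps12 (61 and 5), Rps29 (64 and 13) and Rpl11 (56 and 8). Others, such as Rpl4 (1 and 51), ranked higher by counts. Counts are not per length, so a rank gap alone does not show reads lost to copies. The levels of these genes in the BMP table remain uncertain. In Rps27 single samples stood out, with 488 normalised counts in BMP5 replicate VI and 247 in BMP7 replicate II against 17.7 to 53.4 in all others, and no call followed.

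Rps4l, annotated as a pseudogene related to Rps4x, followed replicate number rather than ligand. In the 5 samples numbered VI it had 556 to 772 normalised counts, and in the 15 others 208 to 305. Rps3a2, the other annotated pseudogene, was listed at 0 in all samples with BMP3 or BMP7 and in control replicate II, with 53.1, 34.6 and 52 in the other controls, so its call with BMP7 rests on groups that overlap.

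In the mesenchymal cells, the members held 11.5% of the TPM when fresh and 8.65% after immortalisation. In 79 of the 81 members over the filter the immortalised sample was lower, where 47.1% of all 8535 genes were. The members' median log2 difference was -0.38 against 0.03 over all genes. At least 2-fold lower were 3 members, where 6.35% of all genes were, and 0 were at least 2-fold higher, where 4.31% were. Rpl22l1 had 488.1 TPM in fresh and 164.2 TPM in immortalised cells, while its paralog Rpl22 had 779.9 and 687.5. Rps7 had 1902 and 672.3 TPM, and Rps29, which sits with Rps28 in the small-subunit head, had 1524 and 647.6 TPM. Rpl13a went from 3424 to 4072 TPM and Rps4l from 12.7 to 25.4 TPM. With 1 sample each, these differences have no replicate check.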

How the data were processed

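RNA was measured in 28 samples in 3 tables. The BMP table's deposited values are counts divided by size factors (signal), and the authors' other tables hold TPM, judged from equal column sums. The submitters' processing notes name GRCm39, Trim Galore, Salmon and DESeq2; annotation and strand handling are not given in the sources used here. Per the labels, libraries ran in more than 1 sequencing run, and samples are not assigned to runs. All columns were mapped to samples (0 unmapped). In the BMP table, the smallest steps gave whole reads for 100% of 180235 low values (tolerance 0.1 reads). High values are given to 3 digits only.

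Genes with a mean of at least 10 were tested per table with limma 3.58.1 (trend) in R 4.3.3 on log2(value + 1), with Benjamini-Hochberg adjustment over all tested genes, and the scripts were tested on simulated data. A fold on this scale understates low genes. Relative changes subtract each sample's member median. Alternatives were other scalings, pseudocount 0.1, other filters, edgeR 4.0.16 and DESeq2 1.42.0 on recovered reads, left-out replicates and replicate numbers as blocks. Over all tested genes, deviations of same-numbered treated and control samples correlated (every r over 0.1) for BMP3, BMP4, BMP5 and BMP7. This did not hold for BMP2 (lowest 0.0182) or Tgfb (lowest -0.0192). Differently numbered samples were not correlated as a baseline. Named members are the 3 extreme calls per direction with no overlap, the 3 highest and lowest means and a list of known members and paralogs; others named were chosen after their values were seen. Members and lists were chosen with earlier results of these data known. The share with further genes added to the members is not reported here.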

Additional observations from a re-analysis of the deposited data

Results flagged for a closer look

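Tested were 166 groups of 4 samples, made up of each of the 82 members and their summed share in controls and in BMP2 samples. In 3 of them (1.81%) 1 sample lay far from the other 3, where chance gives about 1 in 20. Rps4l stood at 652 normalised counts in control replicate VI against 208 to 231 in the other controls. In BMP2 replicate VI Rps4l stood at 556 against 214 to 247. Rpl12 stood at 267 in BMP2 replicate II against 138 to 158 in the other BMP2 samples, and its fall with BMP2 was called with each sample left out in turn.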

How the results depend on the processing

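At the same total in every sample, the medians with BMP2 and BMP4 became -1.15 and -0.57, and 74 members were called with BMP4, 1 with BMP5 and 21 with BMP7. Quantile normalisation gave medians of -1.18 (BMP2), -0.68 (BMP4) and -0.41 (BMP7) and 77, 10 and 63 members with BMP4, BMP5 and BMP7, and TMM gave 3 with BMP7. EdgeR called 26 with BMP4 and 1 with BMP5, and DESeq2 10 with BMP7. Without a filter on low values 4 were called with BMP4, 2 with BMP7, and 0 stood apart from the others with BMP7; with a pseudocount of 0.1, 2 stood apart with BMP4. With the replicate block, 45, 31 and 71 members were called with BMP4, BMP5 and BMP7, and 5 (BMP4), 1 (BMP5), 2 (BMP7) and 19 (Tgfb) stood apart; the block moved no other count of ribosomal protein genes called or apart by over 1.5 times, and its counts for the assembly, mitochondrial and translation lists with BMP5 and BMP7 stand beside those results. The causes of these changes were not tested. Leaving out 1 sample, the members called numbered 3 to 12 (BMP4), 0 to 5 (BMP5), 0 to 9 (BMP7) and 35 to 76 (Tgfb), and 1 to 5 (BMP4), 0 to 1 (BMP7) and 4 to 10 (Tgfb) apart. The counts with BMP2 (68 to 77 members) and of BMP2 against BMP4 (47 to 75) stayed within 1.5 times. Without the 100 highest other genes in the total, the shares were 4.58% in controls, 2.17% (BMP2), 4.62% (BMP3), 3.17% (BMP4), 3.96% (BMP5), 3.6% (BMP7), 21.1% and 16.1% in Tgfb controls and Tgfb, and 18.4% and 14.4% in fresh and immortalised cells. The mesenchymal median was -0.39 over genes of at least 50 TPM and -0.33 with median-of-ratios factors. Of 29 named changes, 6 lost their call under at least 1 alternative and 0 reversed. Precision is limited by 3 or 4 samples a group, by high values given to 3 digits, and by the unknown depth of the TPM.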
